A study of Mus musculus with 6 samples.

Results

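The 6 genes described here, Id1, Id2, Id3, Id4, Smad6 and Smad7, are transcribed in many tissues as an immediate response to bone morphogenetic proteins (BMPs). They are 6 of 18193 genes with a probe set of their own. Every probe set annotated to 1 of them was taken, which gave 11 of the 45037 probe sets on the array that are not controls: 1 for Id1, 3 for Id2, 1 for Id3, 3 for Id4, 1 for Smad6 and 2 for Smad7. They were measured in cells sorted from the mouse genital tubercle, the embryonic bud of the external genitalia, at 12.5 days post coitum. The reporter-positive fraction, labelled as urethral epithelium, was compared with the reporter-negative remainder of the tubercle, with 3 arrays in each group. All embryos carried the same alleles, Shhtm1(EGFP/cre)Cjt and Gt(ROSA)26Sortm3(CAG-EYFP)Hze, on a mixed background. Cre is driven by Shh in such embryos and activates a yellow fluorescent reporter for good, so that the sort gathers cells with present or past Shh activity. Each array had RNA from pooled littermates of both sexes, with 3, 5 and 2 embryos behind replicates 1, 2 and 3 of the positive and also of the negative group. The labels do not say that these pools are separate litters, so p-values measure the spread between arrays, which may be partly technical.

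BMPs bind pairs of serine/threonine kinase receptors, which phosphorylate Smad1, Smad5 and Smad9, and these enter the nucleus with Smad4 and switch on target genes. The Id genes, among the most direct of those targets, encode helix-loop-helix proteins without a DNA-binding region, which capture E proteins and so hold back basic helix-loop-helix transcription factors. Smad6 and Smad7 encode inhibitory Smads that close a feedback loop: Smad6 acts mainly on BMP receptors and Smad7 on both BMP and TGF-beta receptors. Mouse embryos without Bmp7 have defects of the urethra, and Bmp4 is expressed in the developing tubercle.

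Sequences around the starts of 3 of these genes are shown because they hold letters that Smad proteins are known to bind. The 6 genes are grouped as BMP targets and not by these letters. RefSeq promoter windows of build GRCm38.p6, with 250 bases before and 50 after the gene start, were searched for Id2, Id3, Id4 and Smad6. The searched letters, in capitals below, were GGCGCC, a GC-rich box, and GTCTAGAC, the palindromic Smad box; both read the same on either strand, they do not overlap each other, and they were chosen after the sequences had been seen. The Id2 window lies at chr12:25096293-25096342 on the minus strand, that of Id4 at chr13:48260943-48260998 on the plus strand and that of Smad6 at chr9:64022056-64022085 on the minus strand.
Id2: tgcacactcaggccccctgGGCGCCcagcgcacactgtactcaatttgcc
Id4: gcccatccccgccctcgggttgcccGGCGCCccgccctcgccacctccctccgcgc
Smad6: agcgccgcggagccgccaaagtGTCTAGAC
GGCGCC began at position -231 of Id2 and -148 of Id4, counted from the gene start, and was present in 11.9% of all 32851 promoter windows of this length. GTCTAGAC began at position -4 of Smad6, runs across the start used for its promoter window, and was present in 0.213% of them. The RefSeq gene record starts Smad6 further upstream, at chr9:64022085. By that record the printed Smad6 letters lie within the gene. The Id3 window held neither, and Id1 and Smad7 were not searched. These matches describe the letters in the windows and are not evidence of binding.

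Signal differed strongly between arrays, and this bears on each of the 11 probe sets. Background was taken on each array as the brightest of 27 control probe sets for bacterial transcripts that had no visible spike. It was 4.47, 4.41 and 1.12 in positive replicates 1, 2 and 3 and 5.36, 8.28 and 2.03 in negative replicates 1, 2 and 3, in deposited intensity units. In positive replicates 1, 2 and 3, 9, 8 and 1 of the 11 probe sets exceeded it, against 11, 11 and 7 in negative replicates 1, 2 and 3. Positive replicate 3 stood apart: its median intensity over probe sets with 1 gene was 0.34, against 2.15 to 8.84 in the other 5 arrays, and its Spearman correlation with each of them, across probe sets, was 0.325 to 0.345, whereas those 5 correlated at 0.716 to 0.862 among themselves. Each difference named below is therefore given for all 6 arrays and for the 5 arrays without positive replicate 3, and sums over marker genes are given array by array or as ranges. Of the Shh probe sets, the one with more signal had intensities of 287, 718 and 16.9 in positive replicates 1, 2 and 3 and 1.31, 18.4 and 2.51 in negative replicates 1, 2 and 3, so the dim positive array lay just below 1 negative array before normalization. The 12 epithelial marker genes had a median log2 difference of 2.28 in the 6 arrays, with all 12 positive and 2 called, Krt8 and Krt18.

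None of the 11 Id and inhibitory Smad probe sets passed the test for a difference between reporter-positive and reporter-negative cells. In the 6 arrays limma called 0 of 11 at an adjusted p under 0.05 and 0 of 11 at an unadjusted p under 0.05, where 0.0491% and 4.65% of all 24461 probe sets tested were called. In the 5 arrays without positive replicate 3 limma again called 0 of 11 by either rule, against 0.405% and 8.17% of all probe sets. The values of the groups overlapped for each of the 11, in both sets of arrays. Of all probe sets, 12.7% did not overlap in the 6 arrays and 23.5% in the 5. With only 11 probe sets, the counts of 0 given here are not read as particular to the members. The number of arrays limits the precision, and the intervals below give the sizes of difference that remain possible under this normalization and scale.

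**Figure D1:**
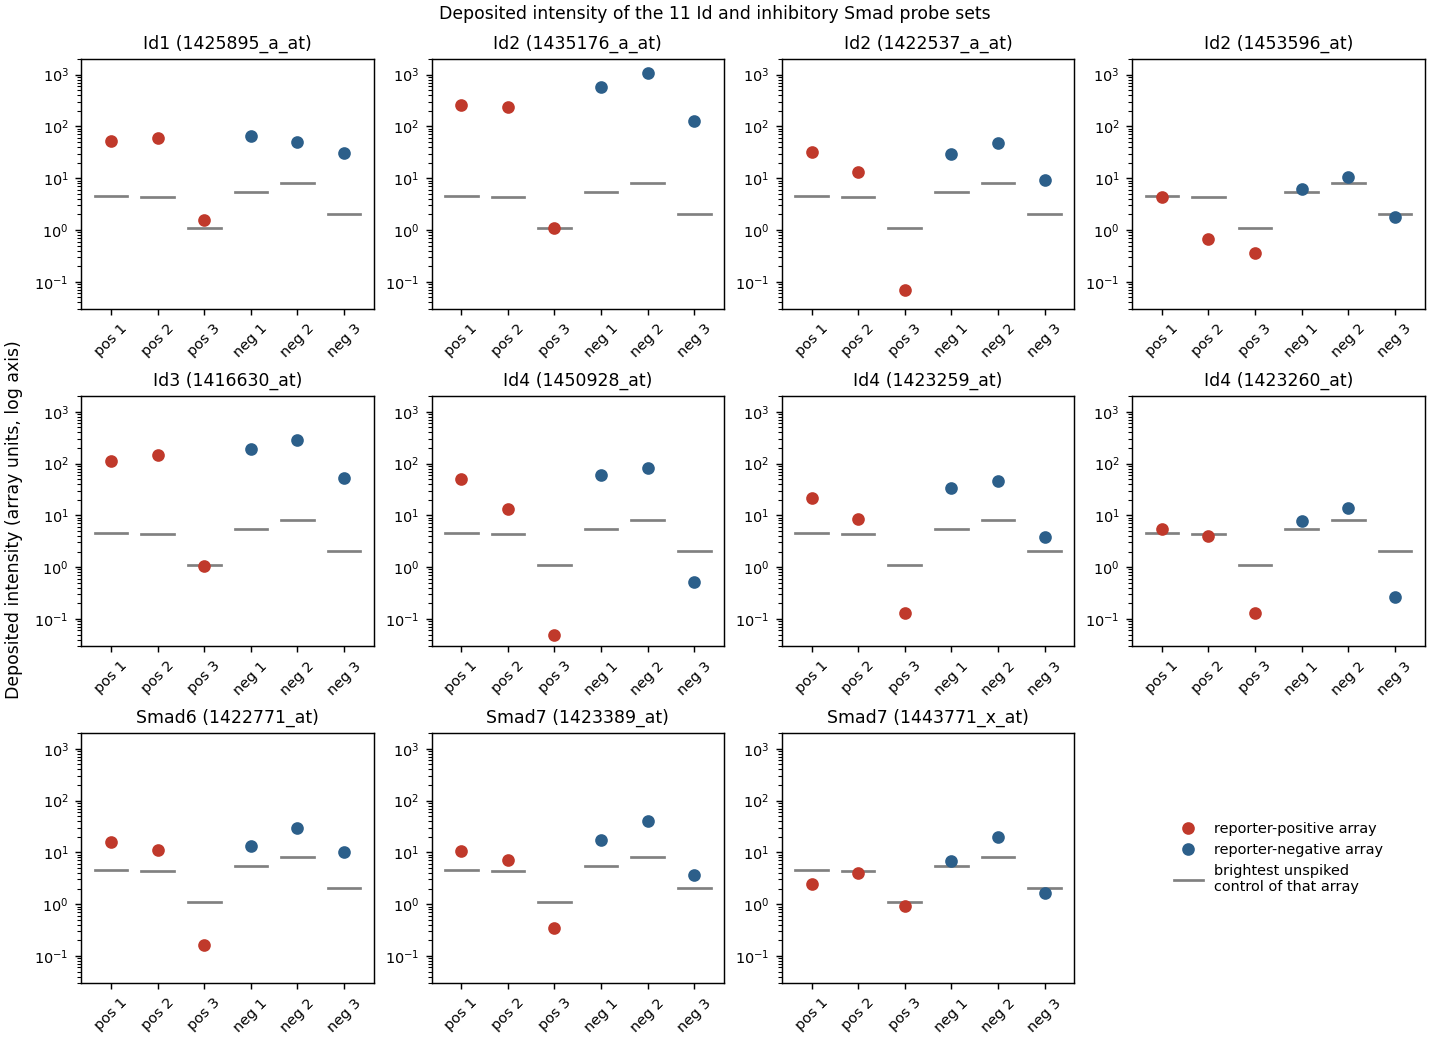
Deposited intensity (log axis) of the 11 probe sets in the 3 reporter-positive arrays, on the left of each panel, and the 3 reporter-negative arrays, with a grey bar for the brightest unspiked control of each array. In positive replicate 3 only the Id1 probe set, at 1.55, lies above its bar, at 1.12.

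Id1, which encodes an inhibitor of basic helix-loop-helix factors with broad expression in the embryo, was the only gene of the 6 with signal above background in every array. Its deposited intensity was 52.3, 61.1 and 1.55 in positive replicates 1, 2 and 3, against 64.6, 50.6 and 30.8 in negative replicates 1, 2 and 3. After quantile normalization, on the log2(signal + 16) scale, it read 6.16, 6.79 and 5.57 in positive replicates and 5.76, 5.27 and 6.64 in negative replicates. The highest array was a positive one and the lowest a negative one, with the other 4 interleaved. The log2 difference, positive minus negative, was 0.29 (SE 0.50, 95% interval -0.81 to 1.38, adjusted p = 0.870, limma) in the 6 arrays. Without positive replicate 3 it was 0.62 (SE 0.41, 95% interval -0.25 to 1.48, adjusted p = 0.751, limma), a fold of 1.53. The difference was -0.019 without positive replicate 2 and -0.017 without negative replicate 2. Of the 6 genes, Id1 came nearest to the threshold in any fit: with a block for pool size and without positive replicate 3 the difference was 1.01 (adjusted p = 0.0836, limma, and 0.0836 to 0.9999 over 23 alternatives). There negative replicate 3, the negative array with the highest Id1, has no partner of its pool size and so carries no weight in the difference.

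Id2 is known for roles in lymphoid and mammary gland development. Its brightest probe set, 1435176_a_at, read 265.5, 235.5 and 1.11 as deposited in positive replicates 1, 2 and 3, against 590, 1091 and 126 in negative replicates 1, 2 and 3. Positive replicate 3 was thus at its background of 1.12, while the other 5 arrays were far above theirs. Normalized log2 values were 8.38, 8.50 and 4.88 in positive replicates, against 8.52, 8.89 and 8.44 in negative replicates. Positive replicate 3 lay far below the rest. The difference of -1.36 in the 6 arrays (SE 0.80, 95% interval -3.14 to 0.41, adjusted p = 0.753, limma) became -0.18 without positive replicate 3 (SE 0.31, 95% interval -0.83 to 0.47, adjusted p = 0.931, limma). Its second probe set, 1422537_a_at, read 5.62, 5.19 and 4.09 in positive replicates and 5.07, 5.22 and 5.41 in negative replicates on the normalized scale. The direction of that probe set turned, with a difference of -0.27 in the 6 arrays and 0.18 in the 5. The dimmest, 1453596_at, was not above background in any of the 3 positive arrays, and was so in negative replicates 1 and 2 alone. It has only a bound in positive cells, and that bound lies above the negative mean, so no fold is given.

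Id3, which acts much as Id1 does and is often expressed with it, read 110, 144 and 1.06 as deposited in positive replicates 1, 2 and 3 and 193, 288 and 52.6 in negative replicates 1, 2 and 3. Normalized log2 values were 7.16, 7.88 and 4.79 in positive replicates, against 7.01, 7.11 and 7.32 in negative replicates. Positive replicate 2 was the highest array and positive replicate 3, not above its background, the lowest. The SD was 1.62 in positive arrays and 0.16 in negative arrays (n = 3 each). The difference was -0.54 in the 6 arrays (SE 0.69, 95% interval -2.06 to 0.99, adjusted p = 0.824, limma). It was 0.38 without positive replicate 3 (SE 0.36, 95% interval -0.37 to 1.13, adjusted p = 0.840, limma), so its sign rests on that array.

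Id4, the Id gene best known from the nervous system and mammary gland, varied as much between negative arrays as between the groups. The brightest probe set, 1450928_at, read 49.6, 13.3 and 0.05 as deposited in positive replicates 1, 2 and 3, against 61.0, 81.5 and 0.52 in negative replicates 1, 2 and 3. It was above background in replicates 1 and 2 of either group and in neither replicate 3, both of which came from pools of 2 embryos. Normalized log2 values were 6.10, 5.19 and 4.03 in positive replicates, against 5.69, 5.68 and 4.13 in negative replicates. All 3 Id4 probe sets, which carry the same accession, were lowest of the negative arrays in replicate 3, at 4.13, 4.64 and 4.06, where Id1, Id3 and Smad6 had their highest negative value. The difference of 1450928_at was -0.061 in the 6 arrays (SE 0.58, 95% interval -1.34 to 1.21, adjusted p = 0.977, limma). Its sign depended on single arrays: it was 0.52 without positive replicate 3 (SE 0.45, 95% interval -0.43 to 1.47, adjusted p = 0.821, limma), 0.19 without negative replicate 1 and 0.17 without negative replicate 2. The other Id4 probe sets, 1423259_at and 1423260_at, differed by -0.24 and 0.024 in the 6 arrays and by 0.042 and 0.11 in the 5.

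**Figure D2:**
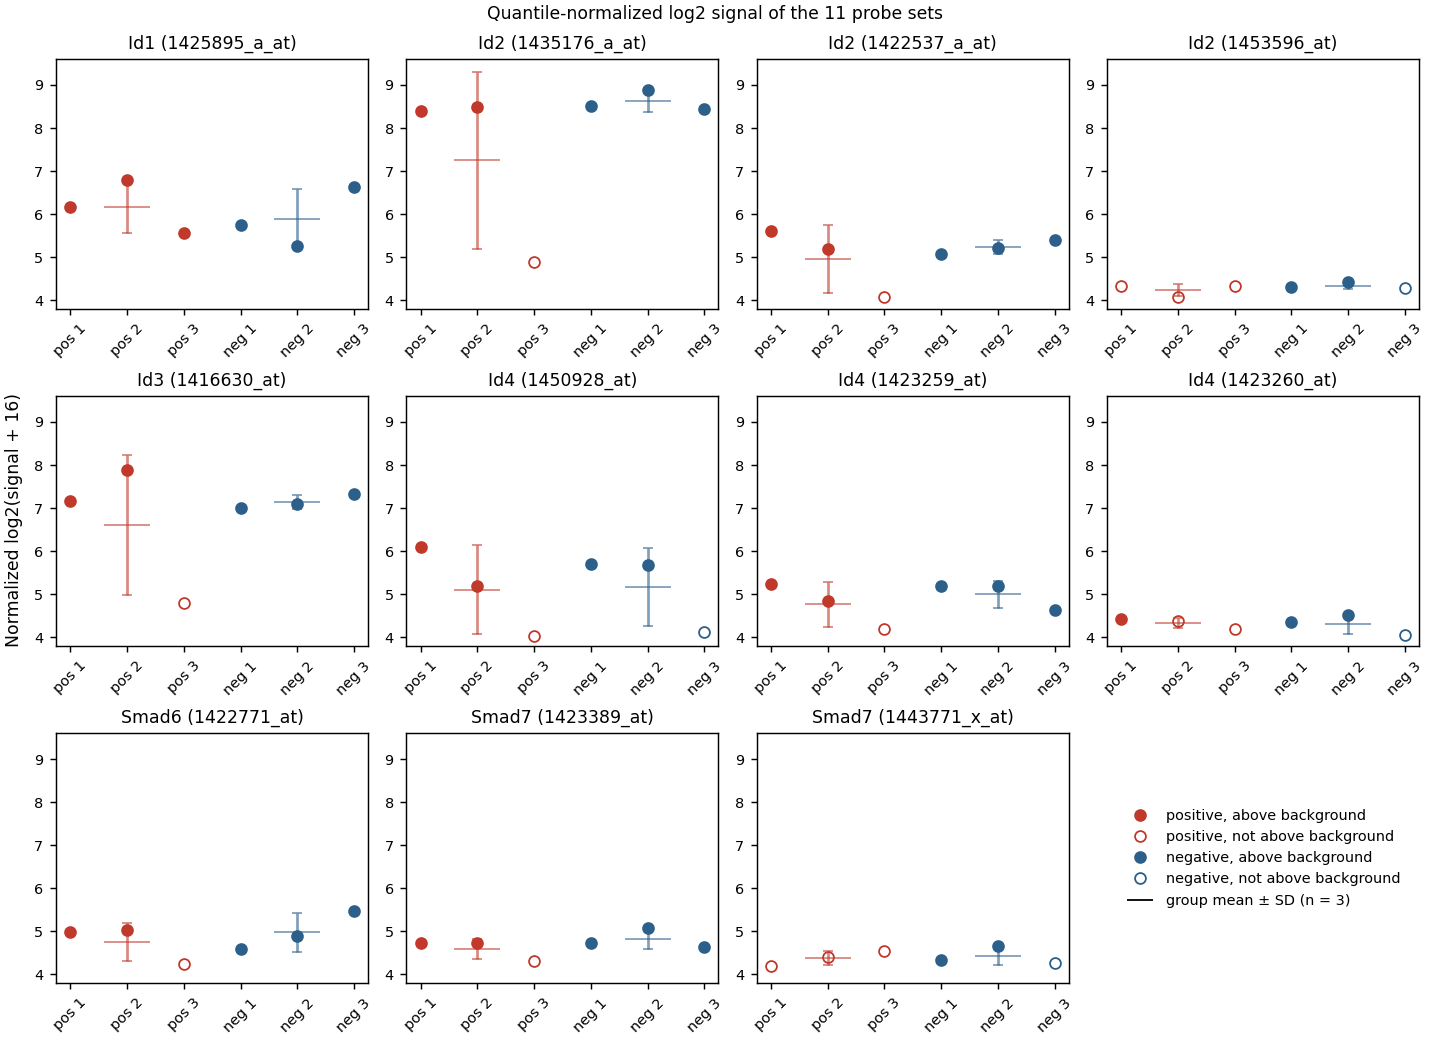
Quantile-normalized log2(signal + 16) of the 11 probe sets by array, positive replicates left of negative ones, with group mean ± SD (n = 3); open points were not above the background of their array. For Id2 1435176_a_at and Id3, positive replicate 3 lies far below the other 5 arrays, which lie between 8.38 and 8.89 for Id2 and between 7.01 and 7.88 for Id3.

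Smad6, the inhibitory Smad that acts mainly on BMP signals and is prominent in vessels and heart, had 1 probe set of modest signal. It read 15.8, 11.03 and 0.16 as deposited in positive replicates 1, 2 and 3, against 13.4, 29.7 and 10.04 in negative replicates 1, 2 and 3. Normalized log2 values were 4.98, 5.04 and 4.23 in positive replicates, against 4.59, 4.89 and 5.48 in negative replicates. Positive replicates 1 and 2 thus lay between the negative values, and positive replicate 3 below all of them. The difference was -0.23 in the 6 arrays (SE 0.36, 95% interval -1.03 to 0.56, adjusted p = 0.857, limma) and 0.031 without positive replicate 3 (SE 0.30, 95% interval -0.61 to 0.67, adjusted p = 0.991, limma). Without negative replicate 3 it was 0.013.

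Smad7, which blocks receptors of both branches, was dim as well. The brighter probe set, 1423389_at, read 10.8, 7.07 and 0.35 as deposited in positive replicates 1, 2 and 3, against 17.6, 39.8 and 3.73 in negative replicates 1, 2 and 3. Normalized log2 values were 4.73, 4.72 and 4.32 in positive replicates, against 4.73, 5.08 and 4.64 in negative replicates. Negative replicate 2 was the highest array, and positive replicate 3 the lowest. The difference was -0.23 in the 6 arrays (SE 0.28, 95% interval -0.85 to 0.39, adjusted p = 0.814, limma) and -0.10 without positive replicate 3 (SE 0.26, 95% interval -0.64 to 0.44, adjusted p = 0.957, limma). With Id2 1435176_a_at, it was 1 of 2 among the brightest probe sets of the 6 genes whose sign was negative in all 23 alternatives, and neither passed the threshold in any of them (limma, lowest adjusted p = 0.483 for Smad7 and 0.433 for Id2). The dimmer probe set, 1443771_x_at, was not above background in any positive array and has only a bound there, which again lies above the negative mean. On the log2(signal + 16) scale the differences of such dim genes are understated.

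Across the 11 probe sets the differences ranged from -1.36 to 0.29 in the 6 arrays, with 9 negative and 2 positive and a median of -0.23, beside a median of -0.029 over all 24461 probe sets. Without positive replicate 3 they ranged from -0.18 to 0.62, with 4 negative and 7 positive and a median of 0.042, beside -0.0077 over all probe sets. In those 5 arrays none of the 11 intervals reached above a fold of 2.79, the upper bound of Id1, or below 0.564, the lower bound of the brightest Id2 probe set. Over the same arrays the epithelial marker Krt8, a keratin of simple epithelia, differed by 4.35 (SE 0.38), and 11 of 12 epithelial markers were called with a list median of 2.44.

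**Figure D3:**
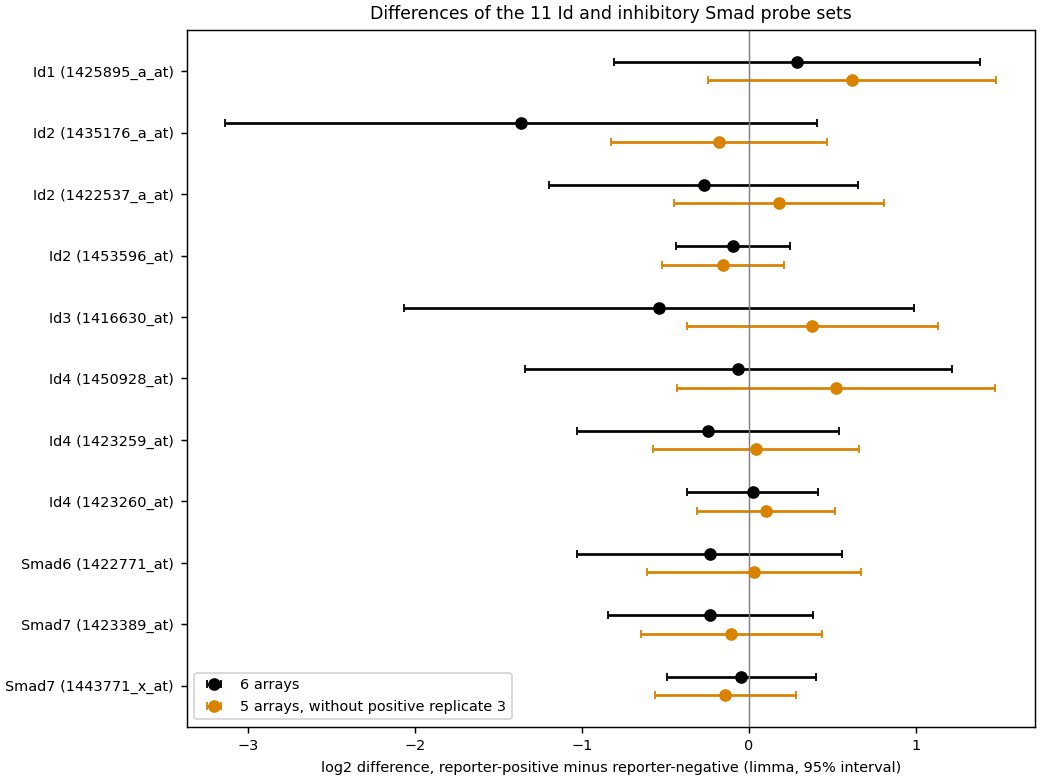
Log2 difference, reporter-positive minus reporter-negative, with its 95% interval for each of the 11 probe sets, in the 6 arrays (black) and without positive replicate 3 (orange). All 22 intervals include 0, and the widest, of Id2 1435176_a_at in the 6 arrays, runs from -3.14 to 0.41.

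The sorted fractions differed in markers of other cells, and these differences were unequal among the positive arrays. As a list, mesenchymal markers were lower in positive replicates 2 and 3 but not in replicate 1: relative to the negative mean, the median of the 11 measured markers of 12 was -0.032, -2.35 and -1.96 in positive replicates 1, 2 and 3. Their summed normalized signal was 2866, 316 and 474 in positive replicates 1, 2 and 3, against 2521 to 3465 in negative arrays, and none was listed at 0 or called. Single markers departed from the list in positive replicate 1: Col1a1, Col1a2 and Prrx1 lay below every negative array and Vim above every one. Among the brightest probe sets, Id1 and Id3 were higher in positive replicate 2, with little mesenchymal signal, than in replicate 1. Id4 was lower there, and Id2, Smad6 and Smad7 changed little. In positive replicate 3, which also had little mesenchymal signal, Id1 and Id3 had their lowest positive values, 5.57 and 4.79. Endothelial cells are a known site of Smad6, Smad7, Id1 and Id3 expression. Of 12 endothelial markers 9, 3 and 2 were above background in positive replicates 1, 2 and 3, against 5 to 6 in negative arrays, with Pecam1 above background in none of the 6. The summed signal of the 9 tested was 82.5, 47.7 and 167 in positive replicates 1, 2 and 3, against 47.6 to 52.3 in negative arrays. In positive replicate 3 most of it was Egfl7, at 7.08 on the normalized log2 scale, against 4.02 to 5.03 for each other marker there. Id genes can also respond to handling of cells: the 12 dissociation response genes summed to 1574, 1247 and 864 in positive replicates 1, 2 and 3, against 448 to 883 in negative arrays, with none of them called. Erythroid markers summed to 628 to 1511 in positive arrays and 3136 to 6035 in negative arrays, and leukocyte markers to 67.4 to 183 in positive arrays and 22.9 to 50.5 in negative arrays. Erythroid Hbb-bh1 and Slc4a1 were called lower in the 6 arrays, joined by Hba-x, Hbb-y and Alas2 in the 5, and leukocyte Csf1r and C1qb were called higher in the 5. The part of these cells in the Id and Smad values was not tested, and fewer cells of a type cannot be told apart from less RNA per cell.

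The rest of the BMP and TGF-beta pathway was read from 90 other genes in 8 lists, 85 of them represented on the array by a single-gene probe set. In the 6 arrays 0 of 79 tested genes were called (limma, 8 at an unadjusted p under 0.05), where 0.0497% of all 14071 genes were called and 5.4% were under that unadjusted p, and 30 of 79 had a positive difference. Without positive replicate 3, 1 of 78 was called (12 at an unadjusted p under 0.05), against 0.566% and 9.28% of all 13960 genes. That gene was Hes1, a repressor of the basic helix-loop-helix family that answers to Notch as well as to BMP signals. Its probe set read 38.9, 60.2 and 1.01 as deposited in positive replicates 1, 2 and 3, against 18.3, 19.7 and 3.04 in negative replicates 1, 2 and 3. Positive replicates 1 and 2 were above each negative array, and positive replicate 3 was not above background. Its difference was 1.77 without positive replicate 3 (SE 0.32, adjusted p = 0.0204, limma) and 1.12 in the 6 arrays (SE 0.49, adjusted p = 0.753, limma), and it passed in 3 of 23 alternatives (adjusted p of 7.395e-06 to 0.9998, limma).

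Among ligands, none of the 8 tested BMP and GDF genes was called and 7 had a negative difference. Bmp4, a ligand of the pathway, differed by -0.29 (SE 0.47) in the 6 arrays and -0.43 without positive replicate 3, by 0.063 without negative replicate 3 and by 0.00062 without positive replicate 2. Bmp5, another ligand, differed by -0.73 (SE 0.44) in the 6 arrays and -0.58 in the 5. Of the 11 tested receptors and co-receptors none was called, with 5 positive differences. Bmpr2, the type II receptor of BMPs, differed by -0.54 in the 6 arrays and 0.41 without positive replicate 3, and in the 6 arrays 2 of its 3 probe sets had the opposite sign. Acvr1, a type I receptor, differed by 0.31 in the 6 arrays and 0.87 in the 5. In the TGF-beta list, with 5 tested and none called, the ligand Tgfb2 differed by 1.03 (SE 0.44) and Tgfb3 by -0.90 (SE 0.41) in the 6 arrays, with Tgfb3 at -0.75 in the 5. For Tgfb2, 2 of 4 probe sets had the opposite sign, and the brightest one without positive replicate 3 was another, which differed by 0.18.

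The Smads that carry the signal were not called either, with 0 of 6. Smad1, which BMP receptors phosphorylate, differed by -0.85 (SE 0.55) and Smad2, which TGF-beta receptors phosphorylate, by -0.33 (SE 0.45) in the 6 arrays. Without positive replicate 3 Smad1 was at -0.70 and Smad2 at 0.13. Smad1 read 6.39, 5.86 and 5.64 in positive replicates 1, 2 and 3 and 7.44, 7.37 and 5.61 in negative replicates 1, 2 and 3 on the normalized scale. The low negative array was replicate 3, so the groups overlapped. The co-repressors Ski and Skil, which restrain Smad complexes, differed by -0.74 (SE 0.43) and -0.54 (SE 0.74) in the 6 arrays. In the 5 arrays Ski was at -0.38 and Skil at 0.50.

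Of 12 tested secreted antagonists none was called. Fst, follistatin, which binds activins and some BMPs, was not above background in any positive array and has only a bound there. The normalized means of Fst were 4.24 in positive arrays and 4.91 in negative arrays, and the mean of the bound was 4.57. The negative mean was thus 1.27-fold above the bound on this scale. That fold leaves out the spread between arrays and is not a lower limit on the difference. The difference did not pass (adjusted p = 0.753 in the 6 arrays and 0.379 in the 5, limma). Grem1, gremlin, which traps BMPs, differed by -0.68 (SE 0.41) in the 6 arrays and -0.44 without positive replicate 3, with overlapping groups. Among 13 other targets of BMP and TGF-beta signals, Msx1, a homeobox gene often found in mesenchyme, read 5.23, 5.29 and 5.09 in positive replicates 1, 2 and 3 and 5.66, 6.66 and 7.51 in negative replicates 1, 2 and 3. The groups did not overlap, and the difference of -1.41 in the 6 arrays (SE 0.49, adjusted p = 0.753, limma), and also -1.41 in the 5 (adjusted p = 0.314, limma), did not pass. Tbx3, a T-box factor, had the largest difference of that list in the 6 arrays, -1.61 (SE 0.52, adjusted p = 0.753, limma), again without overlap. Of its 5 probe sets, 1 had the opposite sign. Without positive replicate 3 another probe set of Tbx3 was the brightest, which differed by -0.69, and 2 of the 5 had the opposite sign.

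Among the partners of Id proteins and other basic helix-loop-helix genes, 0 of 14 tested were called. Twist1, a factor of mesenchyme, differed by -1.29 (SE 0.68) and Hand2, a patterning factor, by -1.27 (SE 0.53) in the 6 arrays. In the 5 arrays Twist1 was at -1.54 and Hand2 at -0.91. Twist1 read 7.68, 4.77 and 6.76 in positive replicates 1, 2 and 3, against 7.16, 7.58 and 8.33 in negative replicates 1, 2 and 3. Positive replicate 1 lay within the negative range, as did the median of the mesenchymal markers, Twist1 among them, in that array. Of the pathway genes not called in either set of arrays, Tbx3 and Tgfb2 passed in 2 of 23 alternatives and Bmp5, Smad1, Fst, Msx1 and Twist1 in 1. The passing alternatives were array weights (Tgfb2, Tbx3 and Msx1) and a pool size block over the 5 arrays (Tgfb2, Tbx3, Bmp5, Smad1, Fst and Twist1), and their adjusted p ran from 1.035e-06 for Tbx3 to 0.0373 for Tgfb2 (limma). Those settings called 680 and 879 of all probe sets tested. All alternatives used the probe set of each gene that was brightest in the 6 arrays. For Tbx3 and Tgfb2 the 5-array differences given above, -0.69 and 0.18, belong to other probe sets. With the probe sets of the alternatives, leaving out 1 array at a time gave -2.12 to -1.26 for Tbx3 and 0.77 to 1.28 for Tgfb2.

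**Figure D4:**
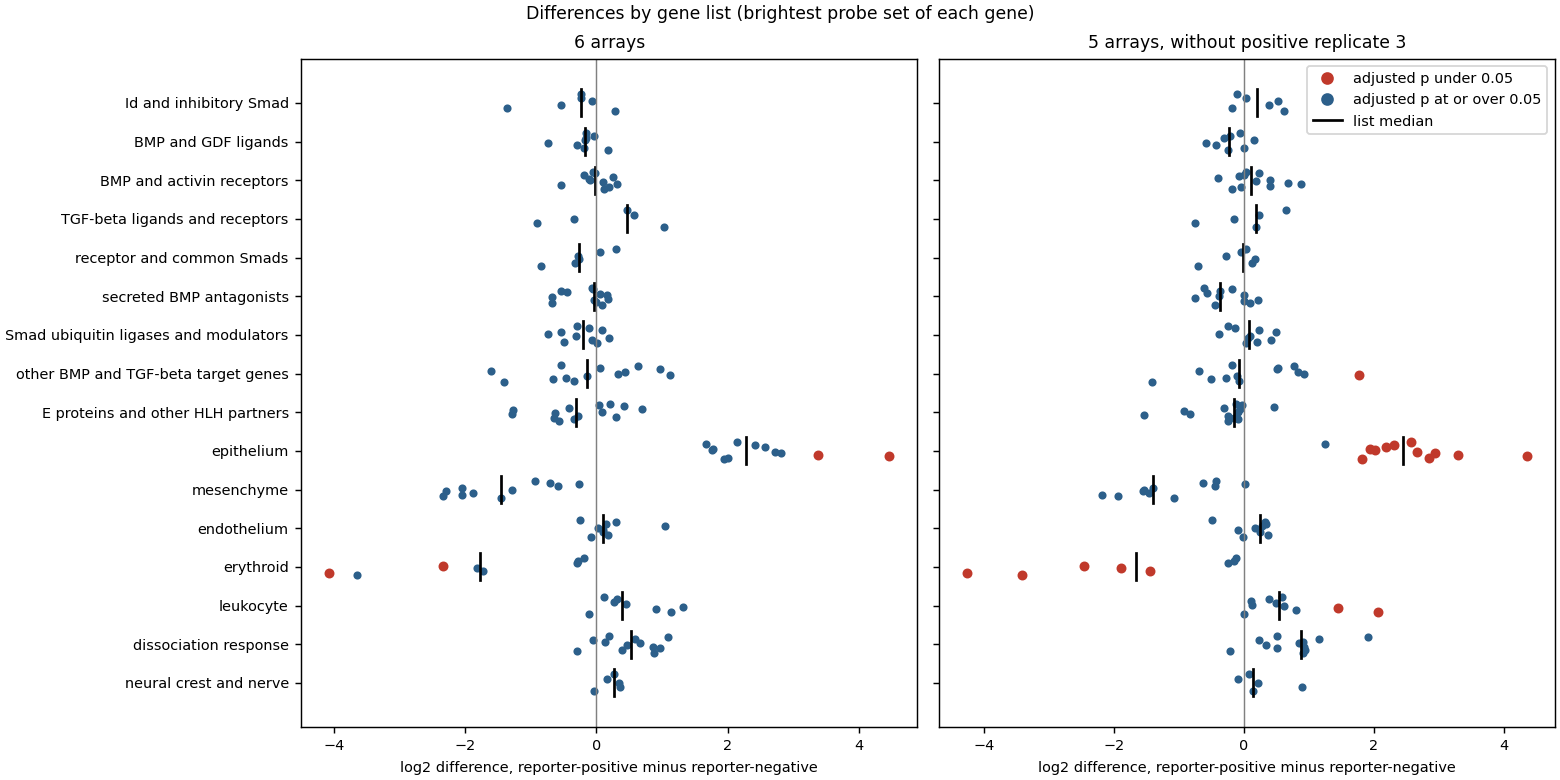
Log2 difference, reporter-positive minus reporter-negative, of the brightest probe set of each gene in 9 pathway lists, the 6 members first, and 7 marker lists, in the 6 arrays (left) and without positive replicate 3 (right); red points have an adjusted p under 0.05 and black bars are list medians. The Id and inhibitory Smad median is -0.23 on the left and 0.21 on the right, while the epithelial median is 2.28 and 2.44.

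The members did not follow 1 common pattern across arrays. On the normalized scale the Pearson correlation of Id1 and Id3 was 0.56 over the 6 arrays and 0.77 over the 5 without positive replicate 3, and that of Id1 and the brightest Id2 probe set was 0.28 over the 6 and -0.75 over the 5. For Id2 and Id3 it was 0.94 over the 6 and -0.25 over the 5, so the high value rests on the dim array. Id4 1450928_at and Smad6 correlated at 0.028 over the 6 and at -0.80 over the 5. The 3 Id4 probe sets correlated at 0.74 to 0.94 over the 6 arrays. Probe sets of the other genes agreed less. For Id2, 1435176_a_at and 1422537_a_at correlated at 0.91 over the 6 and -0.46 over the 5. The dimmest Id2 probe set correlated with these at -0.064 and -0.031 over the 6 and at 0.49 and 0.23 over the 5. The Smad7 probe sets correlated at 0.23 over the 6 and 0.90 over the 5. These correlations are descriptions over few arrays that share a normalization, and no p is given.

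The genes whose normalized values were most like those of each member over the 6 arrays were named by Pearson correlation. For Id1 they were Tnmd, Hagh and Dnajc6, at 0.97 to 0.98 over the 6 arrays and over the other 5. For Id2 they were Fam98b, Ndufa5 and Ndufb6, at 0.999, 0.998 and 0.997 over the 6 arrays and at 0.97, 0.88 and 0.87 over the other 5. For Id3 they were Pfas, Dad1 and Coa8, at 0.997 to 0.998 over the 6 and 0.97 over the other 5. For Id4 they were Mroh1, Ctsf and Rgmb, at 0.99 over both. For Smad6 they were Kmt5c, Aaas and Ap4s1, at 0.99 over the 6, and for Smad7 they were Smchd1, Ccdc117 and Lig4, at 0.98 to 0.99. They were picked from 14071 genes over 6 arrays and describe these arrays alone.

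**Figure D5:**
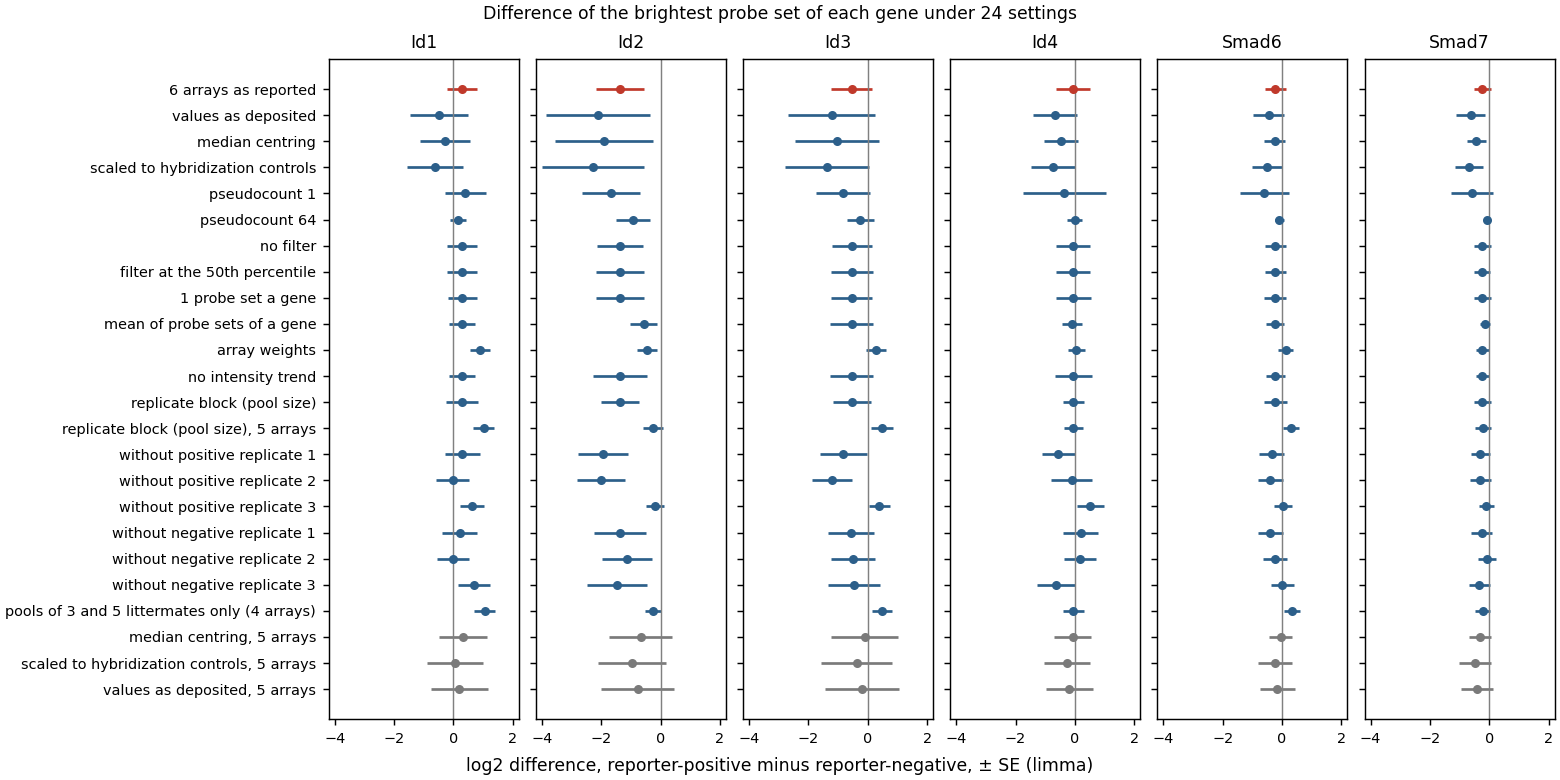
Log2 difference, reporter-positive minus reporter-negative, ± SE for the brightest probe set of each of the 6 genes in the 6 arrays as reported (red), under 20 other settings (blue) and under 3 settings chosen after seeing the data (grey). Id2 and Smad7 stay below 0 under each setting, Id1, Id3, Id4 and Smad6 lie on both sides, and no value passes the threshold.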

How the data were processed

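Biotin-labelled RNA was read on Affymetrix mouse arrays, per the labels. The deposited file holds an intensity for each probe set and array on a linear scale. GCOS is named for 1 sample in the submitters' processing notes; how probes were summarized, scaled and filtered is not stated in the labels. Here 64 control probe sets were left out. Array medians of log2(signal + 16), computed from the deposited intensities, differed by 0.50, above the limit of 0.2, so the other 45037 probe sets were quantile normalized before that transformation. Of them 34945 had 1 gene symbol, 932 several and 9160 none here; 34741 symbols were matched by gene identifier to RefSeq. Probe sets with a mean above the 30th percentile, 24461 with all 11 members, were tested in limma 3.58.1 under R 4.3.3 (lmFit, then eBayes allowing for a trend of variance with intensity). P-values were adjusted over all of them by Benjamini-Hochberg, with a threshold of 0.05. Lists used the brightest probe set of each gene. Named genes were all members, list genes past the threshold in either fit, the 2 with the largest difference in each list and the 3 most alike to each member. Equal pool sizes were not taken as pairs, because the labels state no pairing. Sample titles do number the positive and the negative array of each pool size consecutively. Deviations from the group means correlated at 0.119, 0.030 and 0.101 for equal sizes and at -0.125 to 0.061 for unequal sizes. These values do not settle whether the pools are pairs. Alternatives covered scaling, pseudocount, filter, probe set choice, array weights, variance trend, pool size and each array left out. The filter, fit and adjustment were tested on values simulated on the normalized log2 scale, so normalization and the pseudocount were not tested that way. Members and lists were chosen with earlier results of these data known.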

Additional observations from a re-analysis of the deposited data

How the results depend on the processing

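No member probe set passed the threshold in any of 23 alternatives, of which 3 were chosen after seeing the data (241 member values, lowest adjusted p = 0.0836, limma). Signal over background limits what positive replicate 3 can show, with 10 of 11 member probe sets not above it. Id2 1435176_a_at and Smad7 1423389_at kept their sign in all 23; Id1, Id3, Id4 and Smad6 kept it in 18, 19, 19 and 18. Leaving out 1 array at a time gave differences from -0.019 to 0.69 for Id1, -1.20 to 0.38 for Id3, -0.63 to 0.52 for Id4, -0.40 to 0.031 for Smad6, -0.60 to 0.18 for Id2 1422537_a_at, -0.48 to 0.042 for Id4 1423259_at, -0.11 to 0.11 for Id4 1423260_at and -0.14 to 0.064 for Smad7 1443771_x_at. It gave -0.48 to 0.063 for Bmp4, -1.12 to 0.41 for Bmpr2, -0.028 to 0.87 for Acvr1, -0.69 to 0.13 for Smad2 and -1.24 to 0.50 for Skil, and 0 to 86 higher and 0 to 13 lower probe sets over the whole table.

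Scaling turned some signs, for which the cause was not tested, and moved the median of all probe sets from -0.029 to -0.39 with values as deposited, -0.20 with median centring and -0.44 with scaling to the hybridization controls. In that order Id1 was at -0.48, -0.29 and -0.62, Id4 1423260_at at -0.25, -0.054 and -0.27, Acvr1 at -0.27, -0.077 and -0.36 and Tgfb2 at -0.20, -0.013 and -0.34. Relative to the shifted median, Id1 was lower with each of these scalings. In the 5 arrays the same scalings gave Id4 1423260_at -0.13, -0.018 and -0.16, and median centring gave Skil 0.0097.

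Array weights, which gave positive replicate 3 a weight of 0.112, turned Id2 1422537_a_at to 0.16, Id3 to 0.28, Id4 1450928_at to 0.044, Id4 1423260_at to -0.036, Smad6 to 0.12, Bmpr2 to 0.14, Smad2 to 0.10 and Skil to 0.34. With the 4 arrays of pools of 3 and 5 embryos, Id2 1422537_a_at was at 0.29, Id3 at 0.48, Id4 1423260_at at -0.043, Smad6 at 0.33, Bmpr2 at 0.19, Smad2 at 0.30 and Skil at 0.52. A replicate block by pool size changed no call among members in the 6 arrays and gave 4 higher and 0 lower probe sets (Id1 at 0.29, adjusted p = 0.879, limma). With the block and without positive replicate 3, Id2 1422537_a_at was at 0.28, Id3 at 0.47, Id4 1423260_at at -0.038, Smad6 at 0.30, Bmpr2 at 0.19, Smad2 at 0.28 and Skil at 0.51, with 418 higher and 461 lower probe sets. That fit also called Bmp5 (-0.97), Smad1 (-1.32), Fst, Tbx3 (-2.15), Twist1 (-1.21), Tgfb2 (1.16) and Hes1 (1.70), and array weights called Tgfb2, Tbx3, Msx1 and Hes1. Tbx3 and Tgfb2 are given here for the probe sets that were brightest in the 6 arrays.

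Among all probe sets tested, 7 were higher and 5 lower in the 6 arrays. Array weights gave 348 and 332, the 4 arrays 34 and 17, median centring 39 and 0, and median centring of the 5 arrays 69 and 4. 1 probe set a gene gave 2 and 0, and a pseudocount of 1 gave 8 and 2. Values as deposited, scaling to the hybridization controls, both also in the 5 arrays, a pseudocount of 64, the mean of probe sets and no intensity trend gave 0 and 0 (limma, 215 to 1353 at an unadjusted p under 0.05).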
